A study of Mus musculus with 2 samples.

Results

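Igfbp2 and Igfbp5 encode secreted proteins that bind insulin-like growth factors (IGFs), and they lie next to each other on mouse chromosome 1. Both members were taken by symbol from the deposited gene list, so they make up 2 of the 1068 genes analysed here. Cells were of the LβT2 line, an immortalised mouse gonadotrope model. The line comes from a transgenic pituitary tumour in which the LHβ promoter of the rat drove SV40 T antigen, so its cells are tumour cells that divide in culture. All cells were at passage 15. One culture received 2 nM GnRH and one received vehicle, each for 40 min, and each gave 1 single-cell (SC) library by droplet-based counting of transcript 3′ ends. The vehicle library held 1992 cells and the GnRH library 1889 cells. A unique molecular identifier (UMI) marks 1 captured transcript molecule, so the values below count molecules. There were no replicate libraries, and cells of 1 library cannot stand in for them: no test was run, no p-value is given, and no difference between the libraries has a replicate check.

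IGFs act through a cell-surface tyrosine kinase receptor to promote growth and survival, and most IGF outside cells is held by binding proteins. IGFBP2 and IGFBP5 limit the access of IGFs to the receptor, and both can also attach to matrix or cell-surface molecules, where bound IGF forms a local store. Proteases such as those of the pappalysin family cut some binding proteins and set the IGF free. In the anterior pituitary, IGF signalling is known to influence hormone secretion and cell growth.

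In the GENCODE release M21 annotation of GRCm38, Igfbp2 (ENSMUSG00000039323) spans chromosome 1 from 72824503 to 72852474 on the plus strand, and Igfbp5 (ENSMUSG00000026185) spans 72857932 to 72874884 on the minus strand. The genes therefore point towards each other, and 5457 bases separate their 3′ ends, the ends that the assay counts. The main protein-coding transcript of each gene has 4 exons. No other gene of this annotation overlaps either of them. The annotation used for counting is not given, so overlaps in it could not be checked. The upstream windows of the 2 genes are shown because a shared locus does not mean a shared start region. Each is the 231 bases that run from 250 to 20 bases before the RefSeq transcription start (GRCm38.p6), so that it ends before any annotated exon of the gene. Letters in capitals mark matches, on either strand, to the GC box GGGCGG, the TATA box TATAAA, its A/T-rich variant TATTTAA, the E-box CACGTG or the cyclic AMP response element TGACGTCA. TATTTAA was added to the search after the sequences had been seen. The Igfbp2 window lies at chr1:72824230-72824460 on the plus strand and the Igfbp5 window at chr1:72874885-72875115 on the minus strand, each written 5′ to 3′.
Igfbp2: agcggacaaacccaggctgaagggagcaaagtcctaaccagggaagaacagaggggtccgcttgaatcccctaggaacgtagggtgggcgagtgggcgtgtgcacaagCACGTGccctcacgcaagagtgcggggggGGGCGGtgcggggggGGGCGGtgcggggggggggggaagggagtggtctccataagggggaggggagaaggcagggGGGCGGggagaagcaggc
Igfbp5: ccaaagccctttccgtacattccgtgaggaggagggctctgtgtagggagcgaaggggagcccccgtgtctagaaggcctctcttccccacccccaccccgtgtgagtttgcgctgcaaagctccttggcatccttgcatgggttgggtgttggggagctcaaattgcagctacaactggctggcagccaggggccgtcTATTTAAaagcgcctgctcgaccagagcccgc

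The windows differed in these letters. The Igfbp2 window held 3 GC boxes, the closest of which began 37 bases before the start, and 1 E-box. Of the 32851 RefSeq windows of the same length, 29.97% held at least 1 GC box and 5.37% this E-box. Windows with 3 GC boxes were not counted, and the windows were not matched for their share of G and C. The Igfbp5 window held neither, but had 1 TATTTAA beginning 51 bases before the start, a run found in 3.98% of all windows. TATAAA and TGACGTCA were in neither window, and 11.8% and 1.297% of all windows held them. Bases G and C made up 68.4% of the Igfbp2 window and 60.6% of the Igfbp5 window, against a median of 51.9% over all windows. A match is a description of the sequence and does not show that a factor binds there.

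Totals of the analysed genes were 1126320 UMIs for vehicle and 1118763 for GnRH, with medians of 543.5 and 561 UMIs per cell. They cover 3.81% of the gene list, so the full depth is larger than they show, and CPM below means UMIs scaled to a total of 1000000 for these genes. Of 10 gonadotrope markers, 3 were analysed here: Scg2, a secretory granule protein, had a UMI in every cell of both libraries, and the inhibin subunit genes Inhbb and Inha had one in 76.4% and 49.4% of vehicle-treated cells. Both fibroblast markers analysed, Col3a1 and Col5a2, had 0 UMIs in all cells, which, at a limit of 3 counts for a count of 0, allows a share of up to 0.151% of vehicle-treated and 0.159% of GnRH-treated cells with a UMI (0.185% and 0.195% by the exact binomial interval). Markers of other pituitary, endothelial and immune cells were not analysed here.

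The first question was how strongly the 2 genes are expressed in LβT2 cells and whether their levels differed after GnRH. Igfbp2 was the sixth most abundant of the 1068 genes in both libraries. Its sums were 36708 UMIs (vehicle) and 36534 UMIs (GnRH), or 32591 CPM (95% exact Poisson interval 32258 to 32926) and 32656 CPM (32322 to 32992). The log2 ratio of GnRH over vehicle was 0.0029, with an exact conditional interval of -0.02 to 0.02. Igfbp5 was in place 11 for vehicle and place 12 for GnRH, with 14941 and 13514 UMIs. Its levels were 13265 CPM (13053 to 13480) and 12079 CPM (11877 to 12285), a log2 ratio of -0.14 (-0.17 to -0.10). The intervals cover counting error only.

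Neither gene reached a 2-fold difference. Among the 409 genes that reached 100 UMIs over both libraries, a 2-fold or larger difference was seen in 1.22% towards GnRH and in 0% towards vehicle. Their median log2 ratio was -0.09, with quartiles of -0.19 and 0.00084, so both members lay close to the bulk of the genes. In order of the ratio, 307 of the 409 genes had a lower value than Igfbp2 and 154 a lower value than Igfbp5. Measured from the median gene, Igfbp2 was 0.10 higher and Igfbp5 0.04 lower on the log2 scale. These distances do not depend on how the library sums are scaled, whereas the ratios themselves do. Under TMM and median-of-ratios scaling the ratio of Igfbp5 was -0.044 and -0.054, outside its counting interval above, and that of Igfbp2 was 0.094 and 0.084, also outside its interval.

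**Figure D1:**
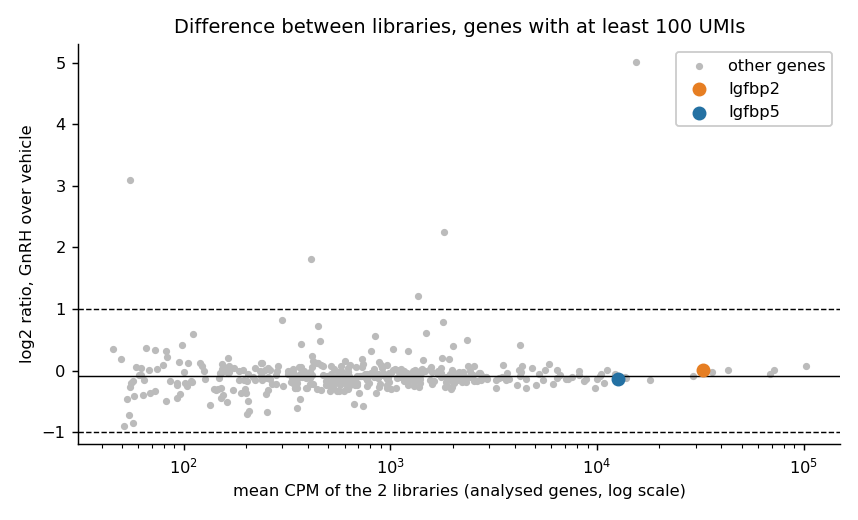
Log2 ratio of GnRH over vehicle (y axis) against mean CPM of both libraries on a log scale (x axis) for 409 genes with at least 100 UMIs, 1 point per gene, with dashed lines at a 2-fold difference and a solid line at the median of -0.09. Igfbp2, at 0.0029, and Igfbp5, at -0.14, lie at the abundant end and near the median line.

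Together the pair took 3.26% (Igfbp2) and 1.33% (Igfbp5) of all UMIs analysed from vehicle-treated cells, and 3.27% and 1.21% from GnRH-treated cells. Igfbp2 had 2.46 UMIs for each UMI of Igfbp5 for vehicle and 2.70 for GnRH. UMIs count 3′ ends of single molecules, so the sums were not divided by transcript length, and a difference in capture between the genes was not tested.

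Other genes of the IGF axis could be compared only in part. Of 28 receptors, ligands, binding proteins, proteases and signalling genes listed for this purpose, 1 was among the analysed genes: Irs1, an adaptor that relays signals from the insulin and IGF receptors. Irs1 was rare, with 67 UMIs for vehicle and 58 for GnRH (log2 ratio -0.20, interval -0.73 to 0.33), and 1 annotated gene overlaps it. At least 1 Irs1 UMI was seen in 67 vehicle-treated and 58 GnRH-treated cells. Of 2 genes whose proteins are known to bind IGFBP5, the matrix glycoprotein gene Fn1 had 640 and 712 UMIs (0.16, interval 0.01 to 0.32). Fhl2, which encodes a LIM-domain cofactor, had 207 and 723 UMIs (1.81, interval 1.59 to 2.04) and was past the 2-fold limit. Each of these last 2 genes also overlaps 1 other annotated gene.

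The levels of genes along the chromosome differed sharply around the pair. Rpl37a, a ribosomal protein gene and the neighbour before Igfbp2 in the gene list, was the most abundant gene analysed, at 99496 CPM for vehicle and 105188 CPM for GnRH. Before it, Ankar had 0 UMIs in both libraries, and Smarcal1, March4 and Xrcc5 ranged from 122 to 410 CPM. After Igfbp5, the next 5 listed genes, among them Tnp1, which encodes a sperm chromatin protein and overlaps an antisense gene, ranged from 0 to 59.9 CPM. The log2 ratios of the 7 neighbours for which a ratio was formed ranged from -0.13 to 0.33, and none was past 2-fold.

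The study asked how individual cells differ, so the share of cells with each transcript was examined next. Igfbp2 was found in all but 2 of the 1992 vehicle-treated cells, a share of 99.9% with an exact binomial interval of 99.6 to 99.99%, and in all but 3 of the 1889 GnRH-treated cells (99.8%, interval 99.5 to 99.97%). Igfbp5 was found in 1849 vehicle-treated cells, or 92.8% (91.6 to 93.9%), and in 1723 GnRH-treated cells, or 91.2% (89.8 to 92.5%). In the vehicle library 143 cells had Igfbp2 without Igfbp5, 2 had Igfbp5 without Igfbp2, and 0 had neither. The corresponding counts in the GnRH library were 165, 2 and 1. No cell type known to lack the 2 genes was identified here, so the part of free RNA in these shares was not tested.

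Cells carried a median of 16 Igfbp2 UMIs in the vehicle library, with quartiles of 11 and 23 and a range of 0 to 105. In the GnRH library the median was 17, the quartiles 12 and 24 and the range 0 to 104. For Igfbp5 the median was 5 UMIs and the quartiles 2 and 10 in both libraries, with a range of 0 to 149 for vehicle and 0 to 142 for GnRH. Igfbp5 was thus spread far more unevenly. The 10% of cells with most Igfbp5 UMIs held 34.2% of them for vehicle and 34.5% for GnRH, against 24.2% and 22.4% for Igfbp2. Within single cells Igfbp5 made up a median of 24.0% of the UMIs of the pair in the vehicle library (quartiles 13.0 and 38.5%) and of 21.7% in the GnRH library (11.0 and 35.3%). Cells with more Igfbp5 than Igfbp2 UMIs were a minority, with 229 treated with vehicle (11.5%, interval 10.1 to 13.0%) and 152 treated with GnRH (8.05%, 6.86 to 9.37%).

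Because cells differed in UMI totals, 300 UMIs were then drawn at random from every cell that had them (thinning), which left 1773 vehicle-treated and 1781 GnRH-treated cells. Igfbp2 then averaged 9.88 and 10.1 UMIs per cell, and Igfbp5 4.09 and 3.81. Igfbp5 was found in 87.4% of vehicle-treated cells (85.7 to 88.9%) and in 83.7% of GnRH-treated cells (81.9 to 85.3%). Over 20 thinnings these shares ranged from 87.0 to 88.4% and from 82.6 to 85.0%, ranges that cover the random draw of UMIs only and say nothing of the spread between cultures. Poisson counting from the mean gives cells without Igfbp5 in 1.67% of vehicle-treated and 2.22% of GnRH-treated cells, whereas 12.6% and 16.3% were observed. At the other end, 43 cells of each library had 16 or more Igfbp5 UMIs.

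**Figure D2:**
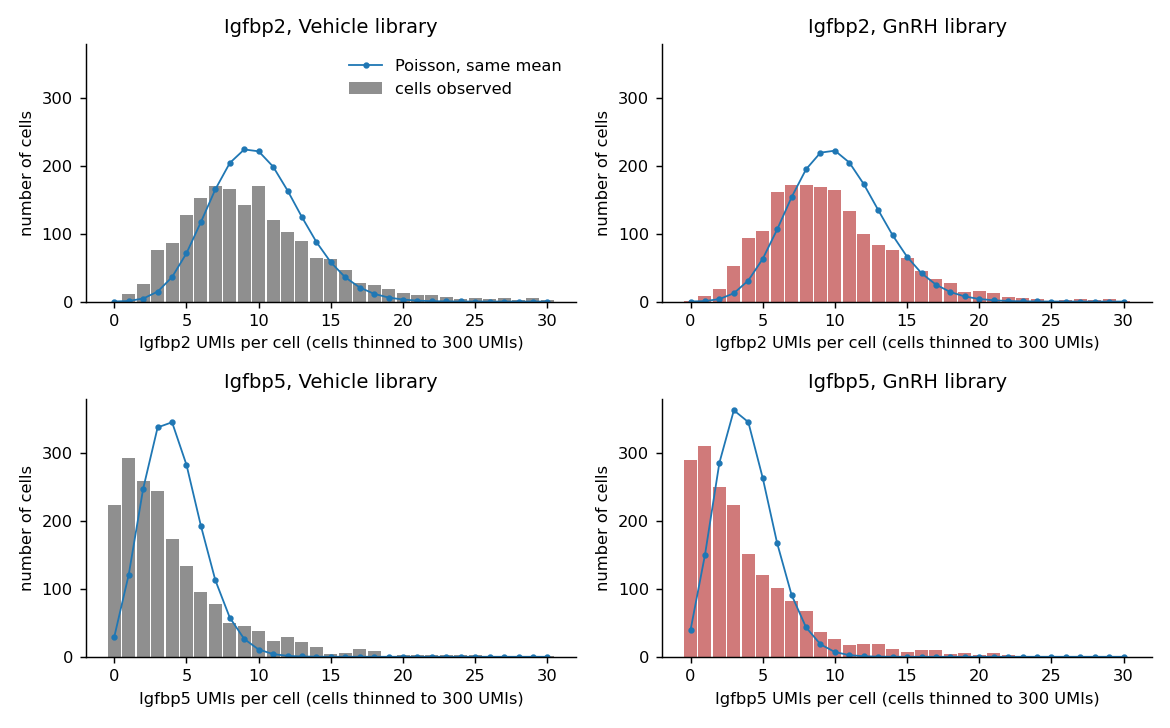
Number of cells (y axis) by UMIs of the gene per cell (x axis) after thinning to 300 UMIs, for Igfbp2 (top) and Igfbp5 (bottom) in the vehicle (grey) and GnRH (red) libraries, with the Poisson expectation of the same mean as a blue line. The axis ends at 30 UMIs, and 15, 29, 1 and 3 cells beyond it (Igfbp2 vehicle, Igfbp2 GnRH, Igfbp5 vehicle and Igfbp5 GnRH) are not drawn; both genes are wider than Poisson, and Igfbp5 has an excess of cells at 0.

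The spread of a gene over cells was expressed as its squared coefficient of variation (CV) divided by what Poisson counting at each cell's UMI total would give. For Igfbp5 this quotient was 3.96 for vehicle and 4.42 for GnRH, in place 2 among 344 and 342 genes that averaged 0.1 UMI per cell or more. For Igfbp2 it was 1.88 and 1.69, in places 9 and 16. Of these genes 5.81% for vehicle and 6.73% for GnRH were at 1.5 times the expectation or more, and the median gene was at 1.07 in both. The members were chosen with such values known, so their places are a description. At the same variation between cells the quotient is larger for a more abundant gene. The part of abundance in the places, here and after thinning, was not tested. Leaving out the 10 cells with most UMIs of the gene lowered every value, as such a removal would for any gene. The shares of genes above were taken with all cells, so they are no measure for the values that follow. Igfbp2 was then at 1.62 for vehicle and at 1.42 for GnRH, the latter under the limit of 1.5, and Igfbp5 at 3.05 and 3.41, both above it.

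At equal depth Igfbp2 took a higher place. Thinned to 300 UMIs, it was at 3.14 times the expectation for vehicle and 3.21 times for GnRH, in place 4 among 301 and 293 genes that kept the minimum mean. Igfbp5 was at 4.39 and 4.46 times, in places 2 and 3 of the same order. Over 20 thinnings the values of Igfbp2 ranged from 2.87 to 3.14 and from 3.15 to 3.41, and those of Igfbp5 from 4.26 to 4.55 and from 4.43 to 4.78. In both libraries the Igfbp5 range was above that of Igfbp2. At own depth the variance expected for Igfbp2 was 4.09 (vehicle) and 3.71 (GnRH) times its mean, and after thinning 1 times. The quotients before and after thinning thus rest on unlike expectations, and their sizes cannot be compared directly.

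**Figure D3:**
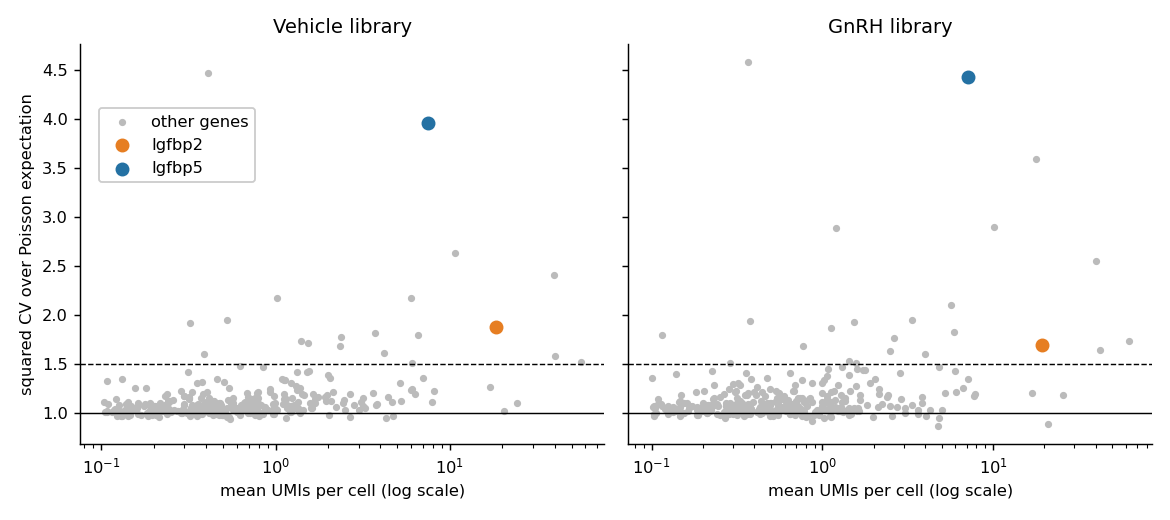
Squared CV over the Poisson expectation (y axis) against mean UMIs per cell on a log scale (x axis), 1 point per gene, at the cells' own depth, with a solid line at 1 and a dashed line at 1.5. Igfbp5, at 3.96 and 4.42, stands far above most genes in both libraries, and Igfbp2, at 1.88 and 1.69, lies above the dashed line.

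Depth moved with both genes at the cells' own depth. Igfbp2 made up 3.37% of the UMIs (3.27 to 3.46%) in the lowest of 4 depth groups of nearly equal size of vehicle-treated cells and 3.17% (3.12 to 3.22%) in the highest, but its highest share, 3.44% (3.37 to 3.52%), was in depth group 2. In the GnRH library the step was wider, from 3.83% (3.74 to 3.93%) to 2.95% (2.90 to 3.00%). Igfbp5 went from 1.53% (1.46 to 1.59%) to 1.24% (1.21 to 1.27%) for vehicle and from 1.56% (1.503 to 1.63%) to 1.14% (1.11 to 1.18%) for GnRH. Its lowest GnRH value, 0.993%, was in depth group 3 of 4. The part of depth in the spread at own depth was not tested beyond the thinning.

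A further question was whether the neighbouring genes are found together in a cell or exclude each other. At 300 UMIs, at least 1 UMI of both was found in 1549 of 1773 vehicle-treated and 1489 of 1781 GnRH-treated cells. The product of the 2 shares gives 1549 and 1489.2, and observed over expected was 1.00 (0.981 to 1.02) and 1.00 (0.978 to 1.02). Detection could hardly give another answer, because every thinned vehicle-treated cell and 1780 of the 1781 GnRH-treated cells had an Igfbp2 UMI. Levels were therefore compared instead.

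Cells above the library median of 1 gene were more often above the median of the other, a comparison chosen after the near-complete detection of Igfbp2 had been seen. In the vehicle library 392 cells had more than 9 Igfbp2 and more than 3 Igfbp5 UMIs, the medians, against 344.4 from the 2 shares, a ratio of 1.14 (1.04 to 1.24). In the GnRH library, with the same medians, there were 375 such cells against 327.7, a ratio of 1.14 (1.04 to 1.25). Among vehicle-treated cells above the Igfbp5 median, 52.1% were above the Igfbp2 median, against 41.1% of the other cells. The corresponding shares of GnRH-treated cells were 53.3% and 42.2%. Over 20 thinnings the ratios ranged from 1.07 to 1.16 and from 1.09 to 1.20, so that none was under 1.

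The level of Igfbp2 was higher in cells with more Igfbp5. Vehicle-treated cells without an Igfbp5 UMI averaged 8.69 Igfbp2 UMIs (8.31 to 9.08, 224 cells), and those with 4 to 7 averaged 10.4 (10.2 to 10.7, 482 cells). The 43 vehicle-treated cells with 16 or more averaged 12.7 (11.7 to 13.8). In the GnRH library cells without Igfbp5 averaged 8.51 (8.18 to 8.85, 291 cells), those with 4 to 7 averaged 10.7 (10.4 to 11.0, 457 cells), and the 43 cells with 16 or more averaged 14.5 (13.4 to 15.7). In this last group the median of 10 Igfbp2 UMIs was the same as in cells with 4 to 7 Igfbp5 UMIs, so the high mean came from a part of the 43 cells. The step was small beside the spread: in vehicle-treated cells without Igfbp5 the quartiles of Igfbp2 were 6 and 11, and with 4 to 7 UMIs of Igfbp5 they were 7 and 13. Both genes vary more than Poisson, so these counting intervals are too narrow. Over the thinnings the mean of cells with 16 or more Igfbp5 UMIs ranged from 10.5 to 13.0 for vehicle and from 12.8 to 16.8 for GnRH. These ranges are wider than the intervals above. The vehicle range overlapped that of cells with 8 to 15 (10.8 to 11.5), so these groups were not separated. Both ranges were above those of cells without Igfbp5 (8.36 to 9.08 and 8.35 to 8.88).

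**Figure D4:**
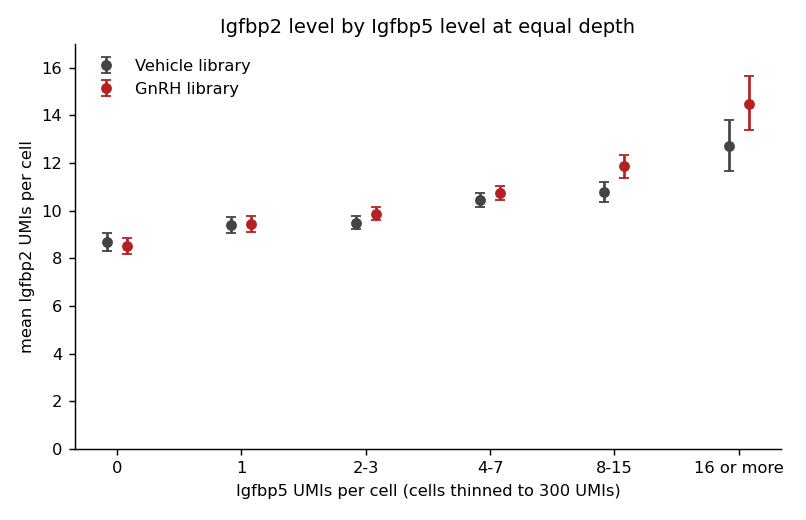
Mean Igfbp2 UMIs per cell (y axis, from 0) in cells grouped by their Igfbp5 UMIs (x axis), after thinning to 300 UMIs, in the vehicle (grey) and GnRH (red) libraries, with 95% exact Poisson intervals that cover counting error only. Means of the first thinning run from 8.69 to 12.7 for vehicle and from 8.51 to 14.5 for GnRH. Over the thinnings the highest group ranged from 10.5 to 13.0 (vehicle) and from 12.8 to 16.8 (GnRH).

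Across single cells the 2 genes correlated weakly and positively. Pearson's r of log2(thinned UMIs + 1), averaged over 20 thinnings, was 0.149 (range 0.125 to 0.166) over 1773 vehicle-treated cells and 0.187 (0.170 to 0.206) over 1781 GnRH-treated cells. Points are cells of 1 culture and library each, at 1 fixed depth, and no p is given. The values of the 2 libraries were not tested against each other. Thinned by the total of the other genes, so that neither member takes part in the total, r was 0.190 and 0.224. After the variance that counting adds had been subtracted, an alternative chosen after seeing the data, the correlation of the genes' shares was 0.197 and 0.275.

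Weak as it was, Igfbp5 had the highest average r with Igfbp2 of 338 genes in both libraries. Over the thinnings it was not separated from the next genes: its range overlapped those of Tmem37 (0.112 to 0.179 for vehicle, 0.125 to 0.183 for GnRH) and Dbi (0.104 to 0.158 and 0.121 to 0.179) in both libraries, and that of Elf3 (0.086 to 0.147) in the vehicle library. The median r of Igfbp2 with these genes was -0.02 for vehicle and -0.01 for GnRH, and the quartiles ran from -0.04 to 0.01 in both. The genes named by r averaged between 0.30 and 42.5 UMIs per cell, and the part of their level in these places was not tested. Genes next on the list by r in vehicle-treated cells were Tmem37, which encodes a calcium channel gamma subunit-like protein (0.145), Dbi, the diazepam-binding inhibitor that carries acyl-coenzyme A (0.134), and Elf3, an epithelial ETS transcription factor (0.124). The GnRH library, which did not choose them, placed these genes in the same order on average, at 0.155, 0.145 and 0.124, with ranges over the thinnings that overlap one another in both libraries. Ptprn, which encodes a membrane protein of dense-core granules, was in place 5 in the vehicle library at 0.092 but at -0.04 in the GnRH library, where its own level was higher (log2 ratio 1.22).

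Igfbp5 was most like Klf7, a Krüppel-like transcription factor gene, with r of 0.164 for vehicle and 0.197 for GnRH, ahead of Igfbp2 in both on the average of the 20 thinnings. The order was not separated over the thinnings, in which r with Klf7 ranged from 0.143 to 0.193 and from 0.172 to 0.241, overlapping the ranges of Igfbp2. Klf7 itself had 3643 CPM for vehicle and 4837 CPM for GnRH (log2 ratio 0.41, interval 0.35 to 0.47). Places 3 to 5 in the vehicle library went to Arpc2, a subunit of the actin-nucleating Arp2/3 complex (0.090), Ralb, a small GTPase (0.082), and Scg2 (0.076). In the GnRH library their r was 0.073, 0.064 and 0.081, in places 10, 14 and 8 of 338. The values under 0.1 are too low to set these genes apart from those next to them.

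At the other end, Hjurp and Ptma were among the 3 lowest genes for both members by average r in the vehicle library, which chose them. For Igfbp2 the place of Ptma was not separated. Its range over the thinnings, -0.179 to -0.136, takes in the average of the next gene, Agap1 (-0.156). The lowest r of Igfbp2 in vehicle-treated cells was with Hjurp, the chaperone that loads centromeric histone (-0.220), and Cntnap5a, a neuronal adhesion gene (-0.220). Their ranges, -0.245 to -0.196 and -0.245 to -0.195, do not separate them. Ptma, which encodes the nuclear protein prothymosin alpha, came next (-0.159). In the GnRH library Hjurp, Cntnap5a and Ptma were at -0.162, -0.177 and -0.151, in places 336, 337 and 335 of 338, and Btg2 was below all of them at -0.246. For Igfbp5 the lowest were Ptma (-0.220), Hjurp (-0.203) and Ube2t, a ubiquitin-conjugating enzyme of DNA crosslink repair (-0.190). In the GnRH library they were at -0.205, -0.199 and -0.185, the 3 lowest of 338 there too. Their vehicle ranges overlap (-0.235 to -0.202, -0.226 to -0.166 and -0.224 to -0.158), so their order was not separated. Ptma is itself abundant, at 71171 CPM among vehicle-treated cells, and had nearly the same level after GnRH (log2 ratio 0.01).

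**Figure D5:**
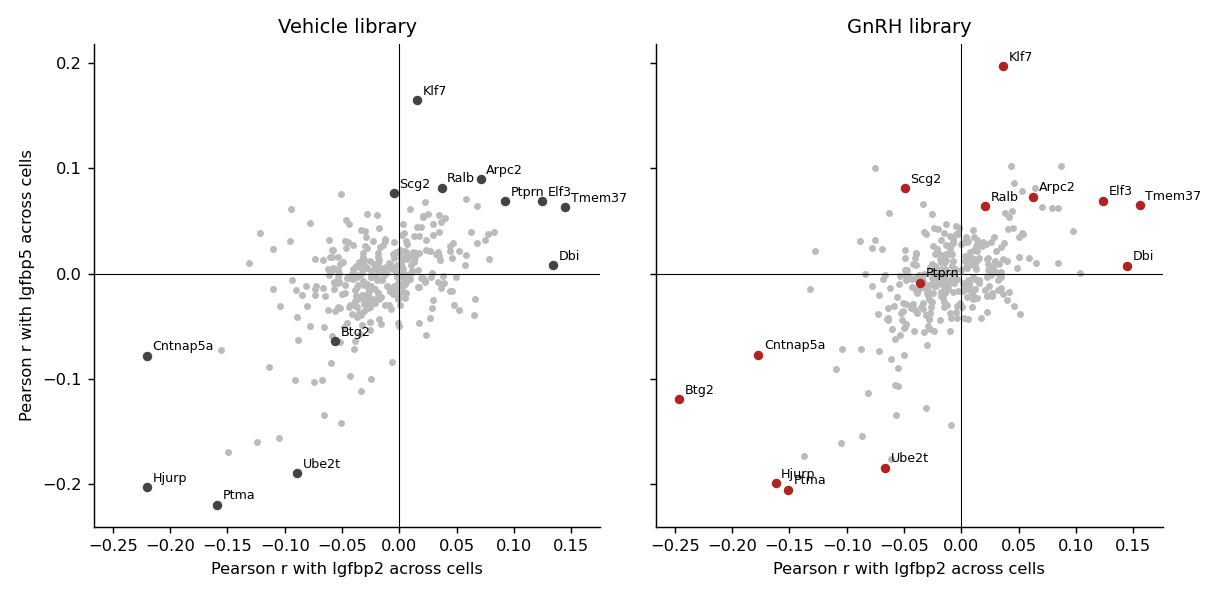
Pearson's r with Igfbp5 (y axis) against r with Igfbp2 (x axis) across cells thinned to 300 UMIs, 1 point per gene, in the vehicle and GnRH libraries, with the genes of highest and lowest r in vehicle-treated cells and Btg2 named. Hjurp and Ptma are low for both members, Klf7 is high for Igfbp5 (0.164 and 0.197) and near 0 for Igfbp2, and Tmem37, Dbi and Elf3 are high for Igfbp2.

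Neighbours of the pair and IGFBP5 binding partners lay between -0.11 and 0.05. Rpl37a, the abundant neighbour, had r of -0.04 with Igfbp2 and -0.10 with Igfbp5 for vehicle and of -0.06 and -0.11 for GnRH. The fixed total lowers r between abundant genes, and its part in the r of Rpl37a and Scg2 was not tested. Xrcc5 and Smarcal1, the other neighbours that averaged 0.1 UMI per cell or more, lay between -0.04 and -0.0022 for both members. Fn1 was at 0.05 with Igfbp2 in both libraries and at -0.03 with Igfbp5, and Fhl2 was between -0.0090 and 0.04. The 3 gonadotrope markers differed in direction. Inha was lower with Igfbp5, at -0.10 for vehicle and -0.18 for GnRH, than with Igfbp2, at -0.02 and -0.06. Inhbb was at 0.03 with Igfbp5 in both libraries and at -0.10 and -0.09 with Igfbp2. Scg2 was at 0.08 with Igfbp5 in both and at -0.0048 and -0.05 with Igfbp2.

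Btg2, an early response gene and the one with the largest ratio between the libraries, had r of -0.06 with both members in vehicle-treated cells, and of -0.246 with Igfbp2 and -0.119 with Igfbp5 in GnRH-treated cells. With Btg2 and both members left out of the totals, the GnRH values were -0.192 and -0.0876. GnRH-treated cells without Igfbp5 averaged 10.7 Btg2 UMIs of 300 (10.3 to 11.1), and the 43 cells with 16 or more Igfbp5 UMIs averaged 6.93 (6.17 to 7.76). The groups between them, with 1, 2 to 3, 4 to 7 and 8 to 15 Igfbp5 UMIs, averaged 8.86, 9.46, 8.75 and 8.23, so the means did not fall at every step. Vehicle-treated cells averaged between 0.172 and 0.334 Btg2 UMIs in the same groups. The spread of Btg2 over GnRH-treated cells was 3.59 times the Poisson expectation, so its counting intervals are too narrow too.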

How the data were processed

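Droplet-based single-cell libraries of vehicle- and GnRH-treated LβT2 cells (1 each) were analysed. The deposited values are raw UMI counts, which the authors obtained with Cell Ranger 1.3 and build mm10, as named in their processing notes. The annotation and the use of strand in counting are not given in the sources used here. The deposited counts were not normalised. The table analysed here held the first 1068 of 27998 listed genes, and 1 incomplete row was left out. Of these genes 1062 were matched to GENCODE M21 by identifier, all of them on chromosome 1. The deposited gene list holds symbols and no other values of use. Cells carry numbers and not barcodes in the table, so shared barcodes could not be counted. No doublet caller was run, and leaving out the 5% of cells with most UMIs stood in for one.

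UMIs were summed per library and scaled to CPM. Intervals at 95% are exact Poisson (sums), exact Clopper-Pearson (shares) and exact conditional binomial (ratios), and cover counting error only. Genes at 3 UMIs or fewer in both libraries got no ratio. Called meant at least 2-fold with at least 100 UMIs, or a squared CV of at least 1.5 times expectation with a mean of at least 0.1. Cells were thinned without replacement to 300 UMIs, which left out 219 vehicle and 108 GnRH cells, 20 times, and the first thinning gave counts. Genes named were the members, an IGF list, markers, the 5 listed genes on either side, and per member the 5 highest and 3 lowest r in the vehicle library. Members and lists were chosen with earlier results of these data known. Promoter windows came from RefSeq, with both members matched; Igfbp2 has a second entry, which is not shown. Statistics were tested on simulated data. Python 3.11.15, numpy 2.4.6, scipy 1.17.1 and, for TMM, edgeR 4.0.16 were used. Alternatives were other scalings, cell filters, thinning depths, expectations and correlation scales.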

Additional observations from a re-analysis of the deposited data

How the results depend on the processing

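Unscaled means, cells above both medians, and the correlation of shares with the counting variance subtracted were chosen after seeing the data.

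The log2 ratio of Igfbp2 was 0.084 under median-of-ratios, 0.094 under TMM, 0.044 as the mean of CPM per cell, 0.046 with Igfbp2, Igfbp5 and Btg2 left out of the totals, 0.024 without the 5% of cells with most UMIs and 0.070 unscaled. That of Igfbp5 was -0.054, -0.044, -0.092 and -0.068 under median-of-ratios, TMM, the 3 genes left out and unscaled. Median-of-ratios and TMM shift all genes alike, by up to 0.09. The Igfbp2 ratio was -0.0059 without cells under 300 UMIs, so its direction is not settled, and neither gene reached 2-fold under any alternative run.

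Thinning to 300 UMIs, which lowers depth and drops shallow cells, took the share of vehicle-treated cells with Igfbp2 to 100% and the shares with Igfbp5 to 87.4% (vehicle) and 83.7% (GnRH). At least 2 UMIs were found in 99.05% and 99.4% of cells for Igfbp2 and in 82.9% and 80.9% for Igfbp5. A plain Poisson expectation, blind to the cells' totals, gave spreads of 7.68 and 6.26 for Igfbp2 and 8.94 and 8.85 for Igfbp5 (vehicle, GnRH). Thinning, which also changes the expectation, gave Igfbp2 3.14 and 3.21, and leaving out its 10 highest GnRH cells gave 1.42. The cause was not tested. The count above both medians over expectation was 1.14 in each library. With the counting variance subtracted, r was 0.275 in the GnRH library. Over all alternatives r ranged from 0.110 to 0.197 for vehicle and from 0.148 to 0.275 for GnRH. No paired analysis was possible because vehicle and GnRH are represented by a single library apiece. Depth limits the zeros of Igfbp5, which are cells without a captured UMI and not cells shown to lack the transcript.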
